A study of Neurospora crassa with 6 samples.

Results

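The heat response of Neurospora crassa without a working OS-2 MAP kinase was read from 1 RNAseq library of os2 cells in heat shock (os2 HS) and 1 library of the same strain at 30°C (os2 30°C). The members are all genes whose FPKM averaged at least 1 over the 6 libraries of the series, and each member is described by its log2 ratio of os2 HS over os2 30°C, called os2 HS/30. FPKM is the number of sequenced fragments scaled to transcript length and to library size. Of 9730 genes in the table, 8098 passed that limit, and 8032 of these were above 0 in both os2 libraries and have a ratio. "Rose" and "fell" are used below only for genes at least 2-fold higher or lower in HS. With 1 library a side there is no replicate error, so every ratio is a description of these libraries and carries no test.

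The os2 cells were the point mutant UCLA 80A, in a strain background (SL4) that differs from the wt strain OR74A, and the study describes its OS-2 protein as truncated and without function. Conidia of each strain were germinated for 5 hr at 30°C in medium with 0.05% glucose, a low-sugar condition that all libraries share. The os2 HS cells were then held at 45°C for 2 hr and the os2 30°C cells at 30°C for 1 hr, so the heat and the longer incubation cannot be told apart. The other libraries are wt HS and wt 30°C, grown in the same ways, and a 45°C treatment with the glucose analog 2-deoxyglucose (DS) of each strain. Between os2 and wt, the os-2 mutation and the strain background cannot be told apart.

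Heat unfolds proteins, and cells answer by making heat shock proteins, the chaperones that hold, refold or disaggregate them, largely through the transcription factor Hsf1, while genes for growth are turned down. OS-2 is the fungal counterpart of yeast Hog1 and animal p38. In Neurospora it is known for osmotic stress, where the histidine kinase OS-1, the phosphotransfer protein HPT-1 and the response regulator RRG-1 act upstream of the kinases OS-4, OS-5 and OS-2, and it also takes part in clock output and conidial gene expression.

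In os2 HS, 1553 genes rose, 19.3% of those with a ratio, and 1215 fell, 15.1%. A further 5264 genes, 65.5%, stayed within 2-fold. Counts within the lists below are to be read beside these shares. The rises reached at least 4-fold in 574 genes and at least 16-fold in 78, and the falls reached 4-fold in 416 and 16-fold in 62. The median log2 ratio over all genes was 0.02. The FPKM columns do not sum to the same total, 426267 in os2 HS and 729148 in os2 30°C, and scaling them to one total adds 0.77 to every log2 ratio of os2 HS/30. On that scale 3330 genes rose and 511 fell, so rises make up 86.7% of the changed genes in place of 56.1%. Directions given below for falls of less than 0.77 on the log2 scale therefore turn round with that scaling, and this is repeated where a group depends on it.

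The difference in column totals lay mostly in the most abundant transcripts. The 100 genes with the highest mean FPKM summed to 104715 FPKM in os2 HS, against 321653 FPKM in os2 30°C, and 72 of them fell while 12 rose. All other genes summed to 321552 FPKM in os2 HS and 407495 FPKM in os2 30°C. By mean FPKM, the lowest of 5 equal classes had 35.9% of its genes risen, and the highest class had 13.7% risen and 23.8% fallen. The transcript of os-2 itself (NCU07024, chromosome IV of assembly NC12, 4948586 to 4952179) stood at 37.01 FPKM in os2 HS and 34.3 FPKM in os2 30°C. In wt the same transcript stood higher, at 65.1 FPKM in wt HS and 113 FPKM in wt 30°C. Why it was lower in os2 was not tested. A point mutation can leave the transcript in place, so these values do not by themselves check the label.

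Chaperones rose as a group. Of 10 genes with an hsp symbol, 8 rose and 1 fell, or 9 and 0 on the scale of equal totals, with a median log2 ratio of 1.79. The small heat shock protein Hsp30 (NCU09364) had 3112 FPKM in os2 HS, against 43.0 FPKM in os2 30°C, a log2 ratio of 6.18 and the largest rise among genes with a name and a mean FPKM of at least 10. Its span overlaps NCU10352 in the annotation, and a library that does not mark strand cannot separate the pair. Below it came both members of the Clp family of disaggregases, the mitochondrial Hsp78 (92.6 FPKM in os2 HS, 14.0 FPKM in os2 30°C) and Hsp98 (232 FPKM in os2 HS, 45.6 FPKM in os2 30°C), with log2 ratios of 2.72 and 2.35. Hsp88, a relative of Hsp70 that serves as its exchange factor, had a log2 ratio of 2.03.

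Several chaperones with a higher level at 30°C had smaller ratios. Hsp80, the Hsp90 of this fungus, had 2462 FPKM in os2 HS and 663 FPKM in os2 30°C, and Hsp70-1 had 2724 FPKM in os2 HS and 913 FPKM in os2 30°C. The mitochondrial chaperonin pair followed, Hsp10 with 1338 FPKM in os2 HS and 343 FPKM in os2 30°C, and Hsp60 with 625 FPKM in os2 HS and 194 FPKM in os2 30°C. These are log2 ratios of 1.89, 1.58, 1.96 and 1.69. Hsp70-2 alone went the other way, at 593 FPKM in os2 HS and 1252 FPKM in os2 30°C, a log2 ratio of -1.08 that is less than a 2-fold fall when the columns are scaled to one total.

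The proteins that work with Hsp70 and Hsp90 rose with them. The study's own list of stress proteins, assembled from proteins measured in the same strains under DS and so not independent of this study, has 17 members with a ratio, of which 13 rose and 0 fell, with a median log2 ratio of 1.58 against 0.02 for all genes. Among the J-proteins that hand clients to Hsp70, Sis1 (322 FPKM in os2 HS, 53.9 FPKM in os2 30°C) had a log2 ratio of 2.58 and Ydj1 one of 1.09. Sti1, which joins Hsp70 to Hsp90, had 432 FPKM in os2 HS and 130 FPKM in os2 30°C. The Hsp90 partners p23 (NCU01792) and Cyp40 had log2 ratios of 1.51 and 1.49, and Fes1, an exchange factor of Hsp70, had 1.21. The mitochondrial exchange factor GrpE and the secretory-pathway prolyl isomerases CypB and FKBP22 had log2 ratios of -0.62, -0.69 and -0.61, short of 2-fold and positive when the columns are scaled to one total. Grp78, the Hsp70 of the endoplasmic reticulum, had 685 FPKM in os2 HS and 375 FPKM in os2 30°C. The heat shock factor gene hsf-1 rose, with 35.3 FPKM in os2 HS and 12.02 FPKM in os2 30°C, and hsf-2 stayed within 2-fold at a log2 ratio of 0.51.

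**Figure D1:**
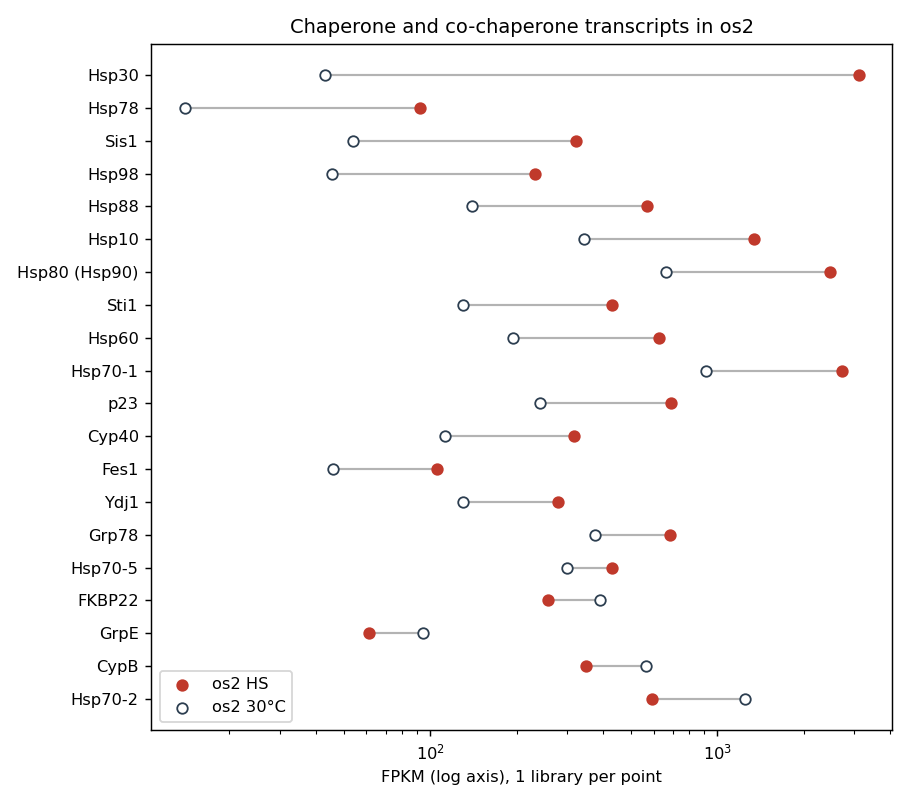
FPKM of 20 chaperone and co-chaperone transcripts, on a log axis, in os2 HS (filled) and os2 30°C (open), 1 library per point, ordered by ratio. Hsp30 has the longest line, with 3112 FPKM in os2 HS and 43.0 FPKM in os2 30°C, and Hsp70-2, CypB, GrpE and FKBP22 are the transcripts whose filled point lies to the left.

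Protein breakdown had no group rise. Of 30 proteasome subunit and regulator genes, only Rpn-4, by symbol a proteasome gene and in yeast the transcription factor for proteasome genes, rose, at 64.0 FPKM in os2 HS and 13.1 FPKM in os2 30°C. The other 29 stayed within 2-fold and the median log2 ratio was -0.26, or 0.51 with the columns scaled to one total. The polyubiquitin gene ubi had 531 FPKM in os2 HS and 750 FPKM in os2 30°C, also within 2-fold. In the study's list of autophagy and vacuole genes, which was chosen on these libraries, 4 of 11 rose and 0 fell, or 7 and 0 on the scale of equal totals. The autophagy scaffold Atg17 led it with 96.7 FPKM in os2 HS, against 17.1 FPKM in os2 30°C, and the kinase gene apg-1 (Atg1) had 37.9 FPKM in os2 HS and 14.7 FPKM in os2 30°C.

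Genes against reactive oxygen divided. Of 6 catalase and superoxide dismutase genes, 2 rose and 1 fell, beside 19.3% and 15.1% over all genes. Cat-2, a bifunctional catalase-peroxidase, had 578 FPKM in os2 HS, against 13.9 FPKM in os2 30°C, a log2 ratio of 5.37. Sod-2, the mitochondrial manganese superoxide dismutase, had 59.4 FPKM in os2 HS and 19.5 FPKM in os2 30°C. Cat-1, the large-subunit catalase of conidia, stayed at 2.20 FPKM in os2 HS and 2.43 FPKM in os2 30°C. In low genes the FPKM values of both os2 libraries fall on steps, and from these 1 fragment is worth about 0.103 FPKM in os2 HS and 0.109 FPKM in os2 30°C in a gene of 1 kb. Cat-1 then rests on about 63 fragments in os2 HS and 66 fragments in os2 30°C, and a 95% exact binomial interval on its log2 ratio runs from -0.67 to 0.37, for counting error only. The secreted-type Cat-3 had 5.07 FPKM in os2 HS and 7.47 FPKM in os2 30°C, and Cat-4 had 4.49 FPKM in os2 HS and 9.19 FPKM in os2 30°C. Scaling to one total turns the small negative ratios of Cat-1, Cat-3 and Sod-1 positive, and leaves Cat-4 at less than a 2-fold fall.

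Detoxifying enzymes moved in both directions. The study's detoxification list, taken from proteins measured in DS, has 19 members with a ratio of 20 found, and 5 rose while 4 fell, or 8 and 2 when scaled to one total, beside 19.3% and 15.1% over all genes. In the study's other detoxification list, of transcripts raised under stress and chosen on these libraries, 7 of 10 rose and 1 fell. Gst-4, a glutathione S-transferase of that list, had 146 FPKM in os2 HS and 15.5 FPKM in os2 30°C, a log2 ratio of 3.23. Esterase D (NCU00173), which releases glutathione in formaldehyde breakdown, had 279 FPKM in os2 HS and 57.9 FPKM in os2 30°C. A peroxisomal peroxiredoxin (NCU03151) had 822 FPKM in os2 HS and 212 FPKM in os2 30°C. At the other end, the P450 benzoate 4-monooxygenase NCU06327 had 41.3 FPKM in os2 HS and 386 FPKM in os2 30°C, a log2 ratio of -3.22. It lies in a run of 4 expressed neighbours on chromosome IV that were each at least 4-fold lower in os2 HS.

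Several genes of fermentation and of carbon reserves rose in os2 HS, and some of the TCA cycle fell. Alcohol dehydrogenase Adh-1 (NCU01754) had 47.4 FPKM in os2 HS and 4.74 FPKM in os2 30°C, a log2 ratio of 3.32, and NCU02397, which the study names a pyruvate decarboxylase and the reference names ilv-5, had 28.2 FPKM in os2 HS and 3.65 FPKM in os2 30°C. In the fermentation list drawn from measured proteins, 3 of 6 rose and 0 fell, and Cfp, the main pyruvate decarboxylase, stood at 30.2 FPKM in os2 HS and 30.0 FPKM in os2 30°C. Of 3 glycogen genes in a list drawn from measured proteins 1 rose, glycogen phosphorylase NCU07027 (121 FPKM in os2 HS, 25.1 FPKM in os2 30°C), while the debranching enzyme and the amylase gene gh13-1 had log2 ratios of -0.13 and -0.04, positive on the scale of equal totals. Outside that list, the glucoamylase Gla-1 rose, with 134 FPKM in os2 HS and 16.2 FPKM in os2 30°C. Of 79 glycoside hydrolase genes, 63 had a ratio, and 25 of these rose and 7 fell, with a median log2 ratio of 0.73. Of the 25, 14 stayed below 10 FPKM in os2 HS, and 16 of the 79 genes did not reach the mean of 1 FPKM.

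The glycoside hydrolases with the largest ratios and a mean of at least 10 FPKM were Gh13-6 (37.8 FPKM in os2 HS, 4.59 FPKM in os2 30°C) and Gh3-3 (37.5 FPKM in os2 HS, 5.64 FPKM in os2 30°C), with log2 ratios of 3.04 and 2.73. Of those that fell, Gh47-4 had 11.5 FPKM in os2 HS and 98.7 FPKM in os2 30°C, Gh28-1 had 3.87 FPKM in os2 HS and 31.6 FPKM in os2 30°C, and Gh10-3 had 0.605 FPKM in os2 HS and 17.9 FPKM in os2 30°C. Over all genes 19.3% rose and 15.1% fell, and in the lowest of 5 classes by mean FPKM 35.9% rose. Scaling to one total gives 43 rises and 5 falls in it.

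Of 21 genes for pyruvate dehydrogenase, pyruvate kinase and the TCA cycle, 0 rose and 6 fell, with a median log2 ratio of -0.81, or -0.03 and 1 fall with the columns scaled to one total. Over all genes 19.3% rose and 15.1% fell, and in the highest of 5 classes by mean FPKM 23.8% fell. Citrate synthase (cit-1), which admits acetyl-CoA to the cycle, had 114 FPKM in os2 HS and 445 FPKM in os2 30°C, the largest fall of the list at -1.97. In glycolysis the phosphoglycerate mutase Emp-6 had 47.6 FPKM in os2 HS and 205 FPKM in os2 30°C, while enolase and hexokinase stayed within 2-fold at -0.66 and -0.60, values that are positive when scaled to one total. The gluconeogenic enzyme PEP carboxykinase (acu-6) had 26.2 FPKM in os2 HS and 6.70 FPKM in os2 30°C. The transaldolase NCU06142 of the pentose phosphate pathway had 2.70 FPKM in os2 HS and a log2 ratio of -3.37. Of 6 trehalose and glycerol genes 4 rose and 1 fell, the risers being the trehalase genes tre-1 and tre-2, the trehalose synthase gene ccg-9 and the glycerol dehydrogenase gene gcy-3, which led with 169 FPKM in os2 HS and 41.0 FPKM in os2 30°C.

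Genes of lipid metabolism moved in both directions. In the study's list of lipid genes raised under stress, chosen on these libraries, 10 of 14 rose and 1 fell. The triacylglycerol lipase Fgl2 (NCU10506) had 45.3 FPKM in os2 HS and 5.65 FPKM in os2 30°C, and Lipase B (NCU04475) had 15.5 FPKM in os2 HS and 1.71 FPKM in os2 30°C. The enzymes that carry glycerol into metabolism were higher too, glycerol kinase NCU06005 at 112 FPKM in os2 HS and 21.1 FPKM in os2 30°C. Fatty acid desaturase NCU09497 had 14.7 FPKM in os2 HS and 381 FPKM in os2 30°C, a log2 ratio of -4.69. Ods, the oleate desaturase, had 134 FPKM in os2 HS and 366 FPKM in os2 30°C, which is less than a 2-fold fall on the scale of equal totals. Phospholipase PldA (NCU10400) and phospholipase D (NCU06342) had log2 ratios of -0.76 and -1.68, the first of which turns positive and the other less than a 2-fold fall on that scale. The fatty acid synthase genes cel-1 and cel-2 had log2 ratios of -0.92 and -0.87, short of 2-fold. All 3 genes with an erg symbol, for ergosterol synthesis, fell, with a median log2 ratio of -2.32, and 2 of them fell on the scale of equal totals. In the study's list of lipid genes lowered under stress, chosen on these libraries, 12 of 16 fell and 0 rose, or 7 and 0 on the scale of equal totals.

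Respiratory genes differed by complex. Of 29 complex I subunit genes 0 rose and 2 fell, with a median log2 ratio of -0.39, and of 18 import genes 0 rose and 3 fell, with a median of -0.41. Both medians are positive, 0.38 and 0.37, with the columns scaled to one total, where import has 2 rises and 0 falls and complex I has 2 of each. In the study's list of mitochondrial transcripts lowered under stress, chosen on these libraries and including genes for cytochrome c, its oxidase, the bc1 complex and ATP synthase, 5 of 7 fell and 0 rose, with a median of -1.19, or 1 and 0 when scaled to one total. Of 10 electron transport genes drawn from measured proteins 3 fell and 1 rose, or 0 and 1 when scaled to one total. The alternative oxidase genes, whose enzyme passes electrons to oxygen without pumping protons, were higher. Aod-1 had 89.9 FPKM in os2 HS and 37.9 FPKM in os2 30°C, and Aod-3 had 9.70 FPKM in os2 HS and 2.03 FPKM in os2 30°C. The NADH dehydrogenases that bypass complex I had log2 ratios of -1.75 (Nde-2), -1.52 (Nde-3), -1.34 (Ndi-1) and -0.21 (Nde-1). On the scale of equal totals Nde-1 is positive, and Nde-2, Nde-3 and Ndi-1 are each at less than a 2-fold fall. The plasma membrane proton pump gene pma-1 had 632 FPKM in os2 HS and 2166 FPKM in os2 30°C, and the 14 vacuolar ATPase genes all stayed within 2-fold.

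**Figure D2:**
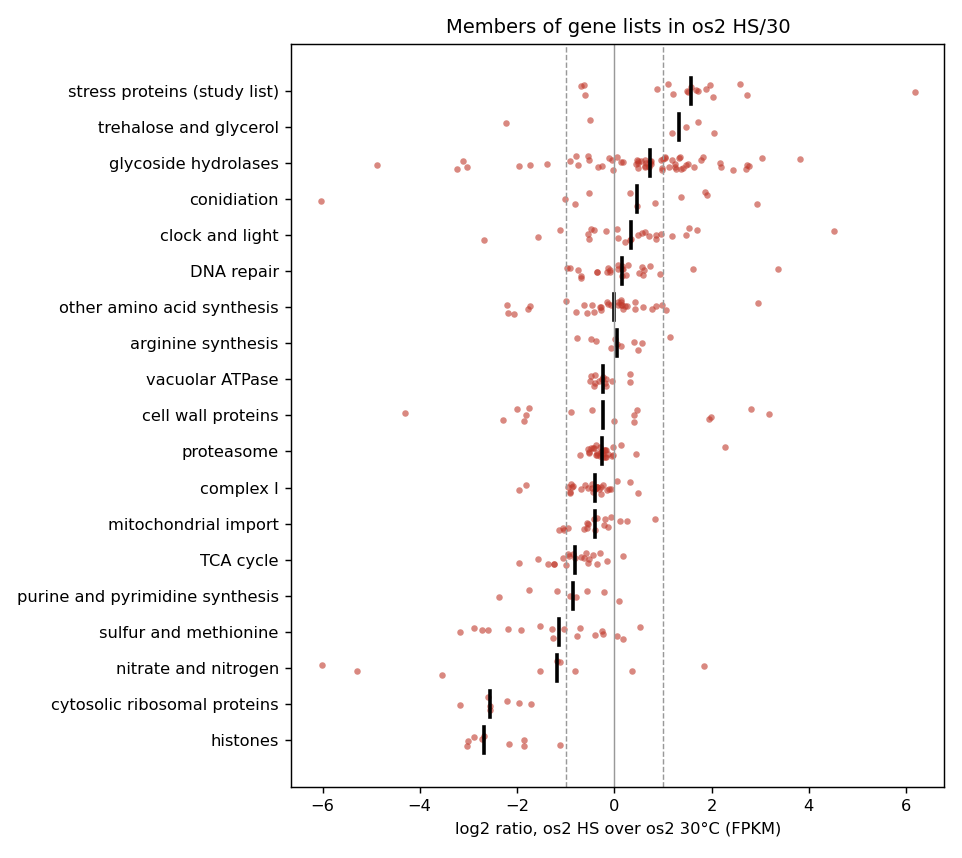
Log2 ratio of os2 HS over os2 30°C for each measured member (points) of 19 gene lists, with the list's median as a black bar and dashed lines at a 2-fold change in either direction. Medians run from 1.58 for the stress proteins to -2.68 for the histones, and the proteasome, complex I and vacuolar ATPase members cluster near 0.

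Transcripts for nitrogen uptake and assimilation fell. Of 9 nitrate and nitrogen genes 6 fell and 1 rose, with a median log2 ratio of -1.18, and scaling to one total gives 3 falls and 2 rises. Nitrite reductase (nit-6) had 1.68 FPKM in os2 HS and 108 FPKM in os2 30°C, and nitrate reductase (nit-3) had 7.21 FPKM in os2 HS and 84.4 FPKM in os2 30°C. The ammonium transporter Mep2 (NCU01065) had 2.24 FPKM in os2 HS and 66.3 FPKM in os2 30°C. The gene that rose was nmr, whose product holds back the nitrogen activator NIT-2, at 91.1 FPKM in os2 HS and 25.3 FPKM in os2 30°C.

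The pair of glutamate dehydrogenases moved in opposite directions. Am, the NADP enzyme that builds glutamate from ammonium, had 59.3 FPKM in os2 HS and 2322 FPKM in os2 30°C, a log2 ratio of -5.29. Gdh-1, the NAD enzyme that breaks glutamate down, had 692 FPKM in os2 HS and 37.2 FPKM in os2 30°C, a log2 ratio of 4.22. Glutaminase A (NCU03648), which frees glutamate from glutamine, had 128 FPKM in os2 HS and 7.85 FPKM in os2 30°C, a log2 ratio of 4.03. The glutamine synthetase gene gln-1 fell, at 291 FPKM in os2 HS and 659 FPKM in os2 30°C, and its log2 ratio of -1.18 is less than a 2-fold fall when scaled to one total.

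Transcripts for sulfur uptake and methionine synthesis fell as well. Of 18 sulfur and methionine genes 10 fell and 0 rose, with a median log2 ratio of -1.14. Cys-11, the sulfate adenylyltransferase that activates sulfate, had 29.4 FPKM in os2 HS and 266 FPKM in os2 30°C. Methionine-pathway gene met-8 had 197 FPKM in os2 HS and 1198 FPKM in os2 30°C, and S-adenosylmethionine synthetase (eth-1) had 125 FPKM in os2 HS and 573 FPKM in os2 30°C. The activator gene cys-3 stayed within 2-fold at -0.24, a value that is positive when scaled to one total, where the list has 6 falls and 1 rise.

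Amino acid genes lay close to the centre of all genes on the deposited scale. Of 11 arginine genes 1 rose and 0 fell, with a median log2 ratio of 0.05, and of 34 other amino acid genes 2 rose and 5 fell, with a median of 0.00. The higher of the 2 rises, at 2.95, is NCU02397, given above as ilv-5 by the reference and pyruvate decarboxylase by the study. When scaled to one total, arginine has 4 rises and 0 falls with a median of 0.82, and the other list has 10 rises and 3 falls with a median of 0.77. The 5 that fell as deposited were ilv-2, leu-1, lys-7, leu-2 and pro-4. Cpc-1, the activator of amino acid synthesis, had 1849 FPKM in os2 HS and 2111 FPKM in os2 30°C, within 2-fold. Of 8 purine and pyrimidine genes 3 fell and 0 rose, or 1 and 0 when scaled to one total, and ad-5 was lowest at 46.1 FPKM in os2 HS and 237 FPKM in os2 30°C.

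Ribosomal protein and histone transcripts fell. All 7 genes with a crp symbol, for cytosolic ribosomal proteins, fell, with log2 ratios between -3.18 and -1.71 and a median of -2.55. Crp-5 had 419 FPKM in os2 HS and 3800 FPKM in os2 30°C, and the ribosomal proteins L22 (NCU06661) and S28 (NCU05599) had 190 and 390 FPKM in os2 HS, against 1917 and 3267 FPKM in os2 30°C. Cpc-2, a scaffold that sits on the ribosome, had 172 FPKM in os2 HS and 1265 FPKM in os2 30°C. On the scale of equal totals, 1 of the 7 crp falls is under 2-fold.

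All 9 histone genes fell, with a median log2 ratio of -2.68. The replication-type histones hH2A and hH2B had 482 and 321 FPKM in os2 HS, against 3890 and 2600 FPKM in os2 30°C. Histone H3 had 628 FPKM in os2 HS and 4116 FPKM in os2 30°C, and the linker histone hH1 had 48.1 FPKM in os2 HS and 355 FPKM in os2 30°C. The variant hH2Az fell least, at 37.6 FPKM in os2 HS and 81.5 FPKM in os2 30°C, and scaling to one total takes it under 2-fold and keeps the other 8. Polyadenylated RNA was measured, so the values describe histone transcripts that carry a tail. Of 27 DNA repair genes, 2 rose and 0 fell, or 10 and 0 when scaled to one total, beside 19.3% and 15.1% over all genes. The endonuclease gene mus-18 led with 24.3 FPKM in os2 HS and 2.35 FPKM in os2 30°C.

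Cell wall genes moved in both directions. Of 16 cell wall protein genes with a ratio, of 17 found, 4 rose and 6 fell, or 7 and 5 when scaled to one total. Over all genes 19.3% rose and 15.1% fell. The anchored protein Acw-4 had 1042 FPKM in os2 HS and 148 FPKM in os2 30°C, and Acw-10 had 21.5 FPKM in os2 HS and 427 FPKM in os2 30°C. Chs-6, a chitin synthase, had 23.6 FPKM in os2 HS and 1.35 FPKM in os2 30°C, a log2 ratio of 4.13. Chitin synthases Chs-3 and Chs-1 had log2 ratios of -1.71 and -0.98, and Chs-3 is at less than a 2-fold fall when scaled to one total. A class III chitinase (NCU12033) had 9.75 FPKM in os2 HS and 0.938 FPKM in os2 30°C. Endoglucanase B (NCU07974) had 32.2 FPKM in os2 HS and 346 FPKM in os2 30°C.

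The largest fall of any gene with a symbol and a mean of at least 10 FPKM was that of eas, the hydrophobin that coats conidia with a water-repellent rodlet layer, at 8.58 FPKM in os2 HS and 560 FPKM in os2 30°C, a log2 ratio of -6.03. Among all genes with a mean of at least 10 FPKM, 3 without a name fell further. NCU12068 had 1.006 FPKM in os2 HS and 243 FPKM in os2 30°C, NCU05712 had 1.12 and 268 FPKM, and NCU08433 had 1.30 and 121 FPKM, in the same order of libraries. At the other end, unnamed NCU16929 had 76.7 FPKM in os2 HS and 0.692 FPKM in os2 30°C, where the 30°C value rests on about 11 fragments, and NCU01735 had 121 FPKM in os2 HS and 1.75 FPKM in os2 30°C. NCU00149 and NCU06719 had 79.9 and 34.4 FPKM in os2 HS and less than the worth of 1 fragment in os2 30°C, so no ratio is given for them.

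Genes of conidiation and of clock and light output moved in both directions. Of 11 conidiation genes with a ratio, of 12 found, 4 rose and 2 fell, eas and rca-1, and the log2 ratio of -1.01 for rca-1 is less than a 2-fold fall when scaled to one total. Con-6 had 18.3 FPKM in os2 HS and 2.41 FPKM in os2 30°C, Con-8 had 79.1 FPKM in os2 HS and 21.1 FPKM in os2 30°C, and Con-10 had 35.4 FPKM in os2 HS and 25.6 FPKM in os2 30°C. Of 25 clock and light genes 5 rose and 3 fell, with a median log2 ratio of 0.35, or 14 and 1 when scaled to one total, beside 19.3% and 15.1% over all genes. The 3 were ccg-4, ccg-6 and phy-2, with log2 ratios of -2.68, -1.56 and -1.11. The clock gene frq and its activator wc-1 stayed within 2-fold at 0.72 and 0.05. Ccg-13, also known as a cell wall protein, had the highest ratio of the list with 15.3 FPKM in os2 HS and 0.668 FPKM in os2 30°C, where the lower value rests on about 7 fragments and the interval on the log2 ratio runs from 3.41 to 5.82.

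In a list of osmosensing pathway genes, 3 of 10 rose and 1 fell, or 4 and 0 when scaled to one total. The other 6 stayed within 2-fold, beside 65.5% of all genes. The list holds os-2 itself, and also asl-1, rrg-2, nik-2 and hcp-1, which are not on the upstream route named above. Of the 3 that rose, os-4 is on that route, and nik-2 and hcp-1 are not. The kinase gene os-4, which acts upstream of OS-2, had 24.1 FPKM in os2 HS and 10.1 FPKM in os2 30°C, and the histidine kinase nik-2 had 11.9 FPKM in os2 HS and 5.33 FPKM in os2 30°C. The phosphotransfer gene hpt-1 had 198 FPKM in os2 HS and 469 FPKM in os2 30°C, and less than a 2-fold fall when scaled to one total. Os-1 and os-5 had log2 ratios of -0.41 and -0.61, which turn positive on that scale, and rrg-1 had 0.09.

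In the cell wall integrity cascade the kinase genes mek-1 and mak-1 fell, with 23.7 and 48.3 FPKM in os2 HS, against 93.6 and 139 FPKM in os2 30°C, and the fall of mak-1, at -1.53, is less than 2-fold when scaled to one total. Of 71 genes with a ratio in the list of kinases by symbol, of 78 found, 7 rose and 10 fell, or 20 and 6 when scaled to one total, beside 19.3% and 15.1% over all genes. The 10 include pp-1, a transcription factor, and pp4, a phosphatase. Stk-37 rose the most among kinases with a mean above 10 FPKM, at 44.5 FPKM in os2 HS and 6.96 FPKM in os2 30°C. A dual specificity phosphatase (NCU05049), of the type that inactivates MAP kinases, had 23.3 FPKM in os2 HS and 1.71 FPKM in os2 30°C. The eisosome protein Pil1 (NCU02540) and its partner Lsp1 had log2 ratios of 2.69 and 1.47.

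Beside wt, the os2 response had the same broad direction and a narrower spread. The log2 ratios of os2 HS/30 and wt HS/30, which share no library, correlated across 7982 genes at a Pearson r of 0.76 and a Spearman rho of 0.80, values that describe these 4 libraries, since genes are not independent replicates. The interquartile range of the log2 ratios was 1.35 in os2 and 2.31 in wt, and neither depends on how the columns are scaled. In wt 2267 genes rose, 28.3%, and 2216 fell, 27.7%. Of 2246 genes that rose in wt and have a ratio in os2, 1308 also rose in os2, which is 58.2% of that list and 86.2% of the 1518 os2 rises. Of 2214 genes that fell in wt, 984 also fell in os2, which is 44.4% of that list and 81.2% of the 1212 os2 falls. Genes that rose in wt had a median log2 ratio of 1.19 in os2 and 2.10 in wt, and genes that fell in wt had a median of -0.90 in os2 and -1.84 in wt. These medians are a description, since the lists were picked by the wt ratio. Genes picked by a rise in os2 had a median of 1.72 in os2 and 2.39 in wt, and those picked by a fall in os2 had medians of -1.57 in os2 and -2.17 in wt.

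**Figure D3:**
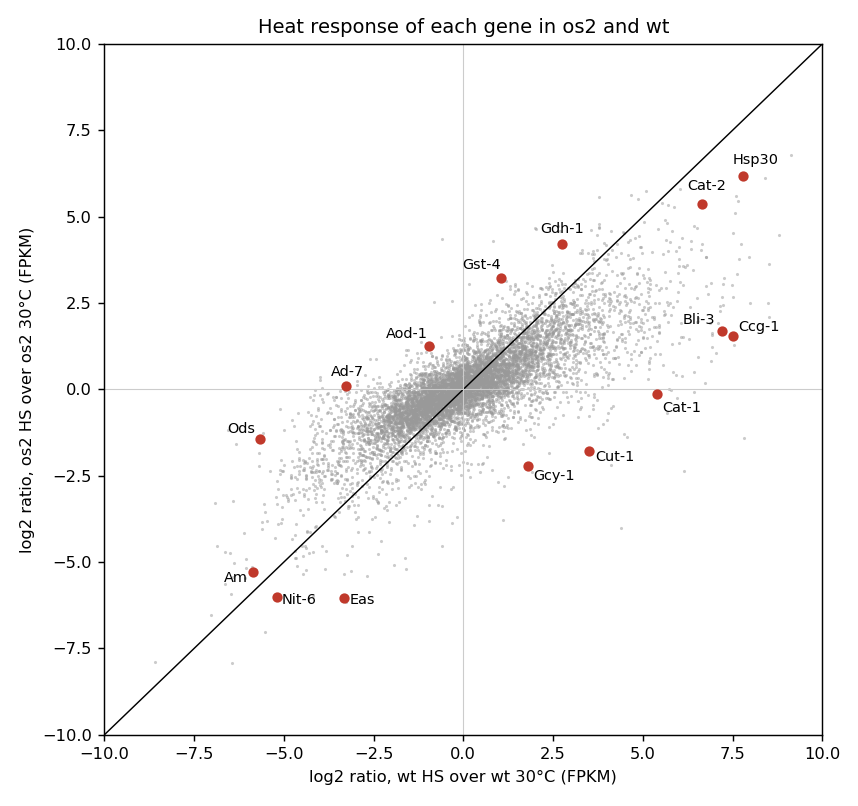
Log2 ratio of HS over 30°C in os2 (vertical) and in wt (horizontal) for 7982 genes, 1 point per gene, with the line of equal ratios and 16 genes outside the axes. The cloud is flatter than the line, Gdh-1, Gst-4 and Aod-1 lie above it, and Cat-1, Ccg-1, Bli-3, Cut-1 and Gcy-1 lie far below it.

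Chaperones were divided between the strains. Of the 10 hsp genes, 6 had a higher ratio in os2 and 4 a lower one, with medians of 1.79 in os2 and 1.44 in wt. The 6 include p23 (NCU01792) and Hsp70-2. Hsp70-2 fell in both strains, at -1.08 in os2 and -3.12 in wt, so its higher ratio is a smaller fall. Hsp80, Hsp70-1 and Hsp60 had log2 ratios of 1.89, 1.58 and 1.69 in os2, against 1.65, 1.22 and 1.22 in wt. Hsp30, Hsp78, Hsp98 and Hsp88 were the 4 with the lower ratio in os2, with 6.18, 2.72, 2.35 and 2.03 in os2 and 7.80, 4.52, 3.25 and 2.55 in wt. Histones were likewise not closer to 0 in os2, with medians of -2.68 in os2 and -1.99 in wt, and 5 of 9 genes had the lower ratio in os2.

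The genes with the largest shortfall in os2 include stress-protective and clock-controlled genes. Cat-1 had 2.20 FPKM in os2 HS and 2.43 FPKM in os2 30°C, beside 153 FPKM in wt HS and 3.64 FPKM in wt 30°C, so it rose in wt and stayed within 2-fold in os2. Ccg-1 had 210 FPKM in os2 HS and 72.0 FPKM in os2 30°C, beside 51910 FPKM in wt HS and 282 FPKM in wt 30°C. Bli-3, a blue-light-induced gene, had 10.4 FPKM in os2 HS and 3.19 FPKM in os2 30°C, beside 1535 FPKM in wt HS and 10.4 FPKM in wt 30°C. Ccg-1 and Bli-3 rose in both strains, and their log2 ratios in os2 minus those in wt were -5.98 and -5.51. Con-10 had log2 ratios of 0.47 in os2 and 4.07 in wt, Pil1 had 2.69 in os2 and 7.20 in wt, and the external NADH dehydrogenase Nde-1 had -0.21 in os2 and 3.64 in wt. Phospholipase PldA (NCU10400), a caleosin-domain protein (NCU09043) and a dienelactone hydrolase (NCU02124) had log2 ratios of -0.76, -0.47 and 0.06 in os2 and 3.49, 4.18 and 3.86 in wt. Scaling to one total adds 0.77 in os2 and 0.41 in wt and so makes each of these differences smaller by 0.37.

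Many genes with the largest positive difference between os2 and wt encode biosynthetic enzymes that were much lower in wt HS than in wt 30°C. Ods had 134 FPKM in os2 HS and 366 FPKM in os2 30°C, beside 7.76 FPKM in wt HS and 394 FPKM in wt 30°C. Ad-7, for the entry step of purine synthesis, had 110 FPKM in os2 HS and 104 FPKM in os2 30°C, beside 8.58 FPKM in wt HS and 83.2 FPKM in wt 30°C. Arg-10, argininosuccinate lyase, had 251 FPKM in os2 HS and 352 FPKM in os2 30°C, beside 24.6 FPKM in wt HS and 279 FPKM in wt 30°C. The levels at 30°C were alike in the strains for these 3 genes, and the levels in HS were not. All 8 purine and pyrimidine genes had a higher ratio in os2, with medians of -0.85 in os2 and -3.42 in wt. The same held for 30 of 34 amino acid genes outside arginine, 20 of 21 TCA cycle genes, 17 of 18 import genes and 7 of 7 crp genes. Among all 2214 genes that fell in wt, 2006, or 90.6%, also had a higher ratio in os2. A higher ratio in os2 is therefore not particular to these lists. Scaling to one total makes each of these differences larger by 0.37.

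**Figure D4:**
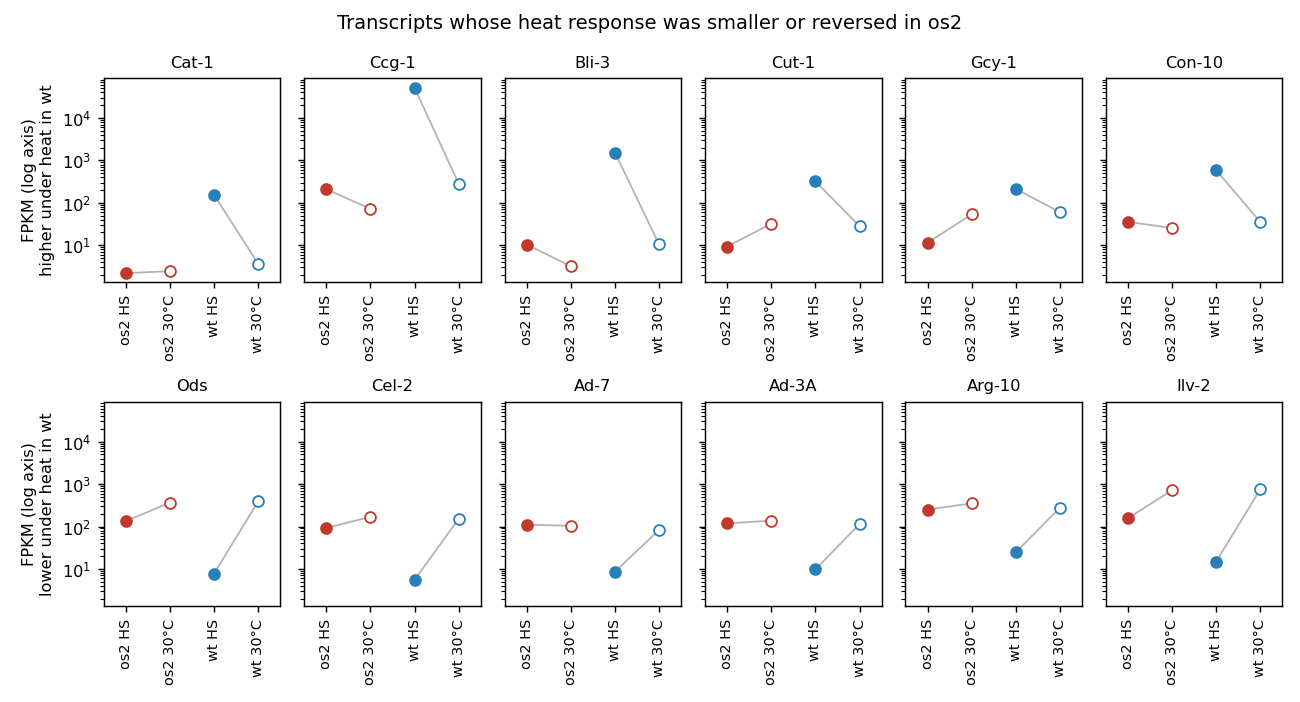
FPKM on a log axis in os2 HS, os2 30°C, wt HS and wt 30°C for 12 transcripts with large differences between the strains, 1 library per point, filled for HS and open for 30°C. In the upper row the os2 HS point is below wt HS in all 6 panels, and in Gcy-1 it is at 11.4 FPKM, against 211 FPKM in wt HS. In the lower row the os2 HS point is above wt HS in all 6 panels.

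Some genes were higher in os2 HS and not in wt HS, or moved further in os2. Aod-1 had log2 ratios of 1.25 in os2 and -0.95 in wt, Gst-4 had 3.23 in os2 and 1.06 in wt, and Gdh-1 had 4.22 in os2 and 2.74 in wt. The hydrophobin gene eas had -6.03 in os2 and -3.32 in wt, and transaldolase NCU06142 had -3.37 in os2 and -0.59 in wt. Of the 1518 os2 rises, 204 stayed within 2-fold in wt and 6 fell in wt. Of the 1212 os2 falls, 194 stayed within 2-fold in wt and 34 rose in wt. The glycerol dehydrogenase Gcy-1 was among the 34, with 11.4 FPKM in os2 HS and 53.1 FPKM in os2 30°C, beside 211 FPKM in wt HS and 60.3 FPKM in wt 30°C. Its neighbour on chromosome IV (assembly NC12), Cut-1, had 9.30 FPKM in os2 HS and 32.0 FPKM in os2 30°C, beside 321 FPKM in wt HS and 28.1 FPKM in wt 30°C. Gcy-1 (747091 to 748922) and Cut-1 (749584 to 752599) have 0 annotated genes between them and lie 662 bases apart.

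The os2 DS library, which had the same heat with 2-deoxyglucose, shares its control with os2 HS, so levels are given side by side. Hsp30 had 3112 FPKM in os2 HS, 27607 FPKM in os2 DS and 43.0 FPKM in os2 30°C, and Hsp78 had 92.6, 996 and 14.0 FPKM in the same order. Hsp98 had 232 FPKM in os2 HS, 2721 FPKM in os2 DS and 45.6 FPKM in os2 30°C. These 3 transcripts were highest in DS. Gcy-1 had 11.4 FPKM in os2 HS, 54.7 FPKM in os2 DS and 53.1 FPKM in os2 30°C, and nit-3 had 7.21, 80.7 and 84.4 FPKM, so both were low in the HS library of os2 and near the 30°C level in DS. Eas had 8.58 FPKM in os2 HS, 140 FPKM in os2 DS and 560 FPKM in os2 30°C. Cat-1 had 2.20 FPKM in os2 HS, 7.85 FPKM in os2 DS and 2.43 FPKM in os2 30°C, so its DS level was more than 2-fold above both others.

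Of the members, 66 were listed at 0 in at least 1 of the os2 libraries and have no ratio, 16 of them in os2 HS and 60 in os2 30°C, with 10 in both. The highest of those listed at 0 in os2 30°C were NCU06590 with 10.8 FPKM in os2 HS, NCU07600 with 9.24 FPKM and NCU06163 with 6.45 FPKM. Then came NCU07177 with 4.24 FPKM and NCU09351 with 4.19 FPKM in os2 HS. Of those listed at 0 in os2 HS, NCU09953 had 10.5 FPKM, NCU01383 had 9.45 FPKM and NCU07088 had 9.37 FPKM in os2 30°C. NCU11293 and NCU16916 followed with 1.71 and 1.18 FPKM in os2 30°C.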

How the data were processed

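6 libraries of polyadenylated RNA were sequenced by the authors, 1 per strain and condition. Per the processing notes the authors used CASAVA 1.8.2, FastQC, TopHat, Cufflinks and Cuffdiff, and per the methods reads were aligned to the 74a_12 genome with the Broad Institute transcriptome. Other versions are not given in the sources used here. The deposited values are FPKM per gene and library, and their median-ratio factors between libraries are near 1, so they are already close to that scale. 1 row without an identifier was left out. Overlapping genes cannot be separated, since the kit does not mark strand.

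Each log2 ratio used the deposited FPKM with nothing added, wherever neither library was at 0, and 2-fold counted as changed. Groups follow the labelled strain and treatment. No test was run, since each condition has 1 library. RefSeq (assembly NC12) supplied symbols for 1118 genes, and 9729 of 9730 identifiers had an entry there. Other names are those of the study's tables, and 5 loci printed there for more than 1 protein were left out of its protein lists. The members and lists were chosen with earlier results of these data known. Named genes were os-2, the 25 largest named rises and falls with a mean FPKM of at least 10, the 5 largest of all genes each way, the 5 highest genes listed at 0 in the other os2 library, the 15 largest positive and negative differences from wt, and members of the lists. Fragments were estimated from FPKM, gene length and the step between low genes (57 of 236 genes below 0.4 FPKM in both os2 libraries lay within 2% of one HS/30 ratio of 0.944), and intervals cover counting error only. Gene lengths include introns, so fragment numbers are approximate.

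Alternatives were 3 scalings of the columns (same total, median ratio, same upper quartile), pseudocounts of 0.1 and 1 FPKM, no filter, a mean of at least 10 FPKM, a 4-fold limit and, added after seeing the data, at least 20 estimated fragments. The code, tested on simulated data, ran under Python 3.11.15 with scipy 1.17.1, pandas 2.3.3, numpy 2.4.6 and, for plots, matplotlib 3.10.9.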

Additional observations from a re-analysis of the deposited data

Results flagged for a closer look

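In 5 named genes the HS/30 ratio passed 2-fold downward in os2 and upward in wt. The log2 ratio in os2 minus that in wt was -5.30 for Cut-1, -4.23 for the taurine dioxygenase NCU07610, -4.03 for Gcy-1, -2.31 for the peptidase inhibitor NCU16822 and -2.13 for Cat-4. With 1 library per condition these differences were not tested. Cat-4 had 4.49 FPKM in os2 HS and 9.19 FPKM in os2 30°C, beside 20.5 FPKM in wt HS and 9.55 FPKM in wt 30°C. NCU16822 had 216 FPKM in os2 HS and 497 FPKM in os2 30°C, beside 859 FPKM in wt HS and 400 FPKM in wt 30°C. NCU07610 had 4.43 FPKM in os2 HS and 16.02 FPKM in os2 30°C, beside 20.8 FPKM in wt HS and 4.01 FPKM in wt 30°C. Scaling to one total leaves NCU16822 and Cat-4 at less than a 2-fold fall in os2.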

How the results depend on the processing

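Scaling the columns to one total gave 3330 rises, 511 falls, 86.7% of changed genes higher in HS, a median log2 ratio of 0.79 and a median size of the log2 ratio of 0.95 in os2, where the FPKM as deposited gave 1553, 1215, 56.1%, 0.02 and 0.67. Scaling to the same upper quartile moved the median log2 ratio to 0.16. A pseudocount of 1 FPKM took the median size of the log2 ratio in wt to 1.04, from 1.15. A mean of at least 10 FPKM left 804 rises and 888 falls, so rises were 47.5% of the changed genes and no longer the larger share. A 4-fold limit left 574 rises and 416 falls. With at least 20 estimated fragments, a setting added after seeing the data, there were 1486 rises and 1202 falls. Other settings kept both counts within 1.5 times, and Spearman's rho between os2 and wt lay between 0.78 and 0.81 in all of them. Of 86 named genes, 77 kept their sign under the 3 scalings and both pseudocounts. The 25 largest named rises and falls are among them, and a shift of 0.77 is too small to turn those, so the share partly follows from the choice. Of 22 list medians followed, 15 kept their sign under every setting. The others of the 22 lay between -0.41 and 0.00. They turned with the scaling to one total or, for amino acid synthesis, with rounding-size shifts. Lists outside the 22 turned too, as glycolysis did, from a median of -0.66 to 0.11 with the scaling to one total. The electron transport genes drawn from measured proteins went from -0.64 to 0.13. No paired analysis was possible because each condition has 1 library. Promoter motifs, planned for the 100 largest rises and the 100 largest falls, were not run, since no promoter sequence was used here. Depth limits low genes, and the spread between cultures is unknown.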

Other observations

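An unnamed gene, NCU04314, chosen after its values were seen, had more FPKM in os2 HS than Hsp30, 7606 FPKM in os2 HS and 175 FPKM in os2 30°C, beside 36690 FPKM in wt HS and 183 FPKM in wt 30°C. Its span overlaps NCU04313, and the pair cannot be separated. Changed genes also stood beside each other on the chromosomes: 5 runs held at least 4 neighbouring members that were each at least 4-fold changed in the same direction, 2 higher and 3 lower in os2 HS. 1 of the higher runs, on chromosome I, contains gh61-10, at 1.48 FPKM in os2 HS and 0.104 FPKM in os2 30°C, near the worth of 1 fragment. Its run members NCU01870 and NCU01869 had 0.186 and 0.262 FPKM in os2 30°C, so these ratios rest on few fragments. 1 of the lower runs, on chromosome VII, contains gh47-4 together with NCU05834, NCU05835 and NCU11308. Those 3 had 0.979, 22.1 and 10.4 FPKM in os2 HS, against 22.8, 134 and 130 FPKM in os2 30°C. Gh47-4 and NCU11308 overlap in the annotation, so their reads cannot be told apart there, and whether such runs exceed what the order of genes alone would give was not tested.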
